A study of Rattus norvegicus with 6 samples.

Results

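The Kruppel-like factors (KLFs) examined here were the 9 genes Klf2, Klf3, Klf4, Klf5, Klf6, Klf9, Klf10, Klf13 and Klf15, taken by gene symbol from the 22574 symbols of the count table. KLFs are transcription factors whose zinc fingers bind GC-rich and CACCC sequences, and which raise or lower transcription according to the cofactors their other domains recruit. In vascular smooth muscle KLF4 is known as a repressor of contractile genes that PDGF-BB can induce, KLF5 as a factor of embryonic and injured muscle, and KLF15 as a factor of the resting vessel wall. In endothelium KLF2 and KLF4 are known as flow-responsive factors.

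RNA was sequenced from rat aortic smooth muscle cells (RASMCs), primary cells of male Sprague-Dawley rats, in 6 libraries. In 3 libraries, labelled CitH3+dsDNA and called H3CIT+dsDNA here, the cells had received citrullinated histone H3 together with double-stranded DNA, both components of extracellular traps. The other 3 libraries were controls given bovine serum albumin, and the labels give neither a dose nor a time of treatment. The concentrations of both components are stated in the study's methods and are not repeated here. The study's general account of in vitro work has replicates as separate wells with cells of 1 animal. Its RNA sequencing methods do not state this for these 6 libraries. On that account, replicate spread reflects wells and library preparation, not animals. Library totals were 17997198, 17573905 and 18009324 counts after H3CIT+dsDNA and 18031326, 18742395 and 18594365 counts in controls.

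The comparison asks which KLF transcripts differ between challenged and control cells. Klf4 was higher after H3CIT+dsDNA, 3.24-fold, and was the 1 KLF called among the 8 with enough counts to be tested. The other 7 tested members had log2 fold changes between -0.27 and 0.16 and did not pass the test, and Klf15 was close to 0 counts in all 6 libraries. A gene was called when edgeR's quasi-likelihood test gave it an adjusted p-value below 0.05, adjusted by the Benjamini-Hochberg method across all 12591 tested genes. By this rule 277 genes were called, 2.2% of those tested, and 244 genes, 1.94%, were called higher. Leaving out H3CIT+dsDNA replicate 1 gave 164 called genes, 147 of them higher, and leaving out control replicate 1 gave 184, 154 of them higher, and Klf4 was the 1 member called in both cases. The 3 H3CIT+dsDNA libraries lay on 1 side of the 3 controls for Klf3, Klf4 and Klf6, all higher, beside 19.1% of all tested genes whose groups did not overlap. The median log2 fold change was 0.10 over the 8 tested members and -0.0013 over all tested genes. 7 of the 8 tested members had a positive log2 fold change, beside 49.4% of all tested genes. In RNA from whole cultures, a change in the share of cells that carry a transcript and a change in its amount per cell cannot be told apart.

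Klf4 had 137, 110 and 141 counts in the H3CIT+dsDNA libraries and 34, 45 and 43 counts in the controls. Every H3CIT+dsDNA library was above every control, and the lowest of them, replicate 2, had more counts than any pair of controls added together. As CPM, counts scaled to library size after TMM normalization, the level was 7.19 ± 0.826 (SD, n = 3) against 2.22 ± 0.274 (SD, n = 3) in controls. The log2 fold change was 1.69 (standard error 0.17), with a 95% confidence interval of 1.32 to 2.07, or 2.50 to 4.20 as a fold change. Its adjusted p-value was 3.69e-05 in edgeR's quasi-likelihood test, adjusted by Benjamini-Hochberg, and it ranked 107 among the tested genes by p-value. With 34 counts in control replicate 1, counting error alone was 17.1% of the value there. This percentage covers counting error only and takes reads as independent, although PCR copies of a molecule are counted as reads, whereas the 95% intervals come from the edgeR fit and include the spread between libraries.

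**Figure D1:**
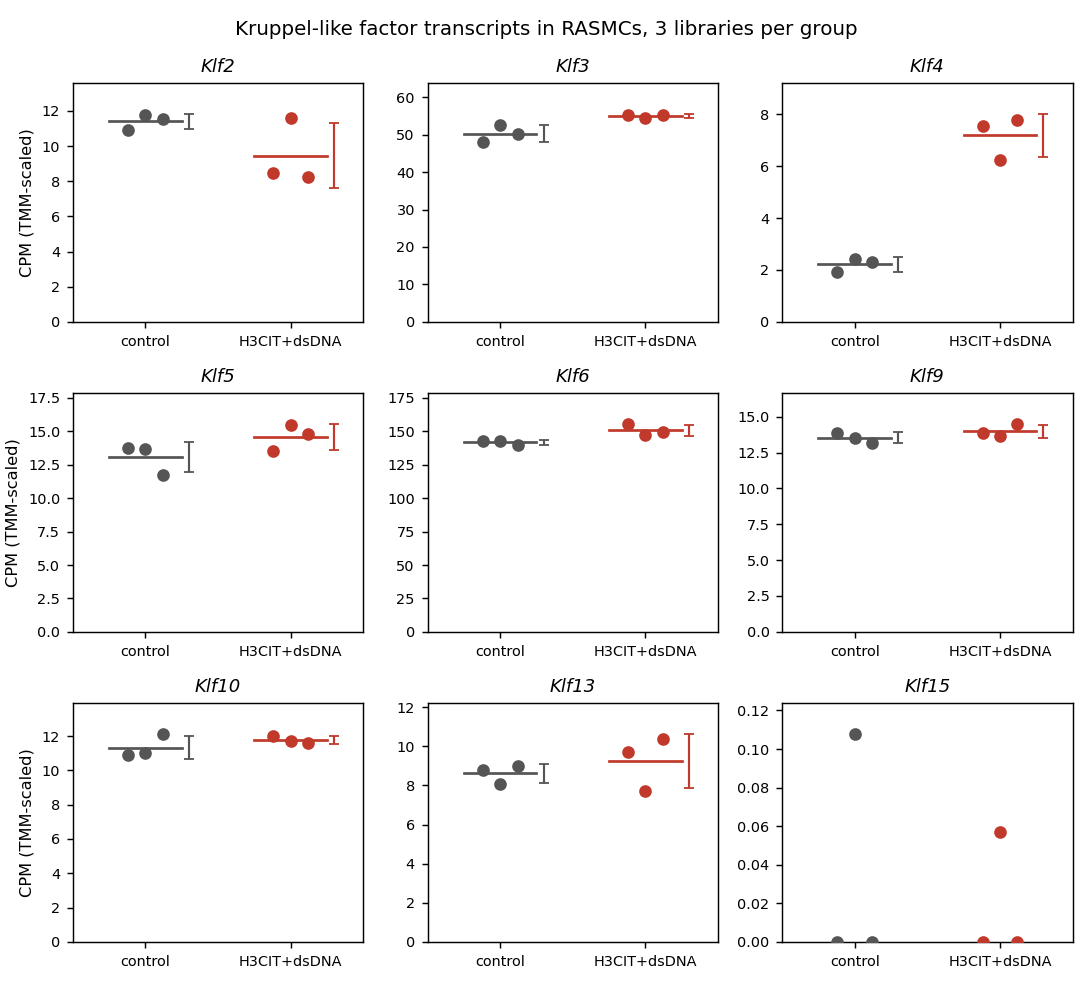
TMM-scaled CPM of the 9 KLF transcripts in each library of the control group and the H3CIT+dsDNA group, with the vertical axis of each panel starting at 0. Points are libraries, horizontal lines are group means and bars are 1 SD (n = 3), both left out for Klf15; the Klf4 points lie between 1.90 and 2.42 CPM in controls and between 6.24 and 7.77 CPM after H3CIT+dsDNA, with no overlap.

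Klf2, the close relative of Klf4 that responds to laminar flow in endothelium, had 154, 204 and 150 counts after H3CIT+dsDNA and 195, 218 and 214 counts in controls. Replicates 1 and 3 of the H3CIT+dsDNA group lay below all controls, whereas replicate 2 lay among them. The log2 fold change was -0.27 (standard error 0.13), with a 95% interval of -0.55 to 0.0038 and an adjusted p-value of 0.369 in edgeR's quasi-likelihood test. Without H3CIT+dsDNA replicate 2 it was -0.45, and the adjusted p-value from edgeR was 0.0605, the lowest of the range of 0.0605 to 0.690 over the 15 alternatives. The 95% intervals of Klf2 and Klf4 do not overlap, and the difference between their changes was not tested.

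Klf5, a factor linked to proliferation of smooth muscle after injury, had 245, 272 and 268 counts after H3CIT+dsDNA and 245, 254 and 218 counts in controls. The ranges overlapped, and the log2 fold change was 0.16 (95% interval -0.04 to 0.36, adjusted p-value 0.485 in edgeR's quasi-likelihood test), or 0.09 without control replicate 3. Klf6, a broadly expressed factor of the wound response, had 2819, 2596 and 2707 counts after H3CIT+dsDNA and 2552, 2646 and 2595 counts in controls. Its raw counts overlapped, but after TMM scaling the 3 H3CIT+dsDNA libraries were above the controls. The log2 fold change of Klf6 was 0.09 (95% interval 0.01 to 0.17), and the adjusted p-value was 0.320 in edgeR's quasi-likelihood test.

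Klf3, which represses transcription by recruiting the corepressor CtBP, had 1004, 960 and 1003 counts after H3CIT+dsDNA and 856, 974 and 931 counts in controls. Scaled to CPM, all 3 H3CIT+dsDNA libraries were above the controls. The log2 fold change was 0.13 (standard error 0.05), with a 95% interval of 0.03 to 0.24 and an adjusted p-value of 0.230 in edgeR's quasi-likelihood test, so the difference did not pass the test over all genes.

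Klf9, Klf10 and Klf13 can repress transcription through the corepressor SIN3A. Klf9, which glucocorticoid and thyroid hormone induce in many cells, had 251, 240 and 263 counts after H3CIT+dsDNA and 248, 251 and 244 counts in controls. Klf10, first described as an early gene induced by TGF-β, had 218, 206 and 211 counts against 194, 204 and 225 counts in controls. Klf13, known from T cells as a factor of Ccl5 transcription, had 176, 136 and 188 counts against 157, 150 and 167 counts in controls. For each of these 3 genes the groups overlapped. Their log2 fold changes were 0.05, 0.06 and 0.10, with 95% intervals of -0.12 to 0.22, -0.14 to 0.25 and -0.17 to 0.37, so that a change as large as that of Klf4 lies outside all 3 intervals. With single libraries left out, the value of Klf9 ran from 0.02, without H3CIT+dsDNA replicate 3, to 0.07, without control replicate 1. That of Klf10 ran from 0.03, without control replicate 1, to 0.11, without control replicate 3. Klf13 ran from 0.01, without H3CIT+dsDNA replicate 3, to 0.22, without H3CIT+dsDNA replicate 2.

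Klf15, a regulator of metabolism in muscle and liver, had 1 count in the H3CIT+dsDNA group, in replicate 2, and 2 counts in the control group, in replicate 2. Both groups were under the floor of 3 counts per library, which corresponds to between 0.162 and 0.170 CPM in these libraries. Klf15 had too few counts to pass the filter and was not tested, and a change between counts this low was not detectable at this depth. No H3CIT+dsDNA library had more than 1 count of it.

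The rest of the family was taken as a list of 18 KLF and SP genes, of which 17 were in the table and 11 had enough counts to be tested. The SP factors share the zinc finger type of the KLFs and bind similar GC-rich sites. 1 of the 11 was called, Sp3, which was higher after H3CIT+dsDNA. Sp3, a broadly expressed factor that binds the same sites as Sp1, had 386, 362 and 370 counts against 221, 305 and 284 counts in controls. The groups did not overlap, and control replicate 1 was the lowest library. The log2 fold change was 0.49 with a standard error of 0.10 (adjusted p-value 0.0144 in edgeR's quasi-likelihood test). Without H3CIT+dsDNA replicate 1 the adjusted p-value of Sp3 from edgeR was 0.0909, in a range of 0.00171 to 0.0909 over all alternatives, while the log2 fold change was 0.47. Sp1, the member with the most counts on this list, had 1441, 1409 and 1499 counts against 1215, 1417 and 1359 counts in controls and was not called (log2 fold change 0.15, adjusted p-value 0.157 in edgeR's quasi-likelihood test). Klf16 had a log2 fold change of 0.01, with a 95% interval of -0.08 to 0.10. With single libraries left out its sign turned, from -0.01 without H3CIT+dsDNA replicate 3 to 0.02 without H3CIT+dsDNA replicate 1. The median over the 11 tested genes was 0.01. Klf8 had the largest value among those not called, 0.64, from 6 to 18 counts per library and with a 95% interval of -0.24 to 1.54, and was at 1.04 without control replicate 3 and 0.37 without H3CIT+dsDNA replicate 3. Klf14, Sp5 and Sp9 had no count in any library, Klf17, Sp7 and Sp8 had at most 1 count in a library, and Klf18 was not listed under that symbol.

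**Figure D2:**
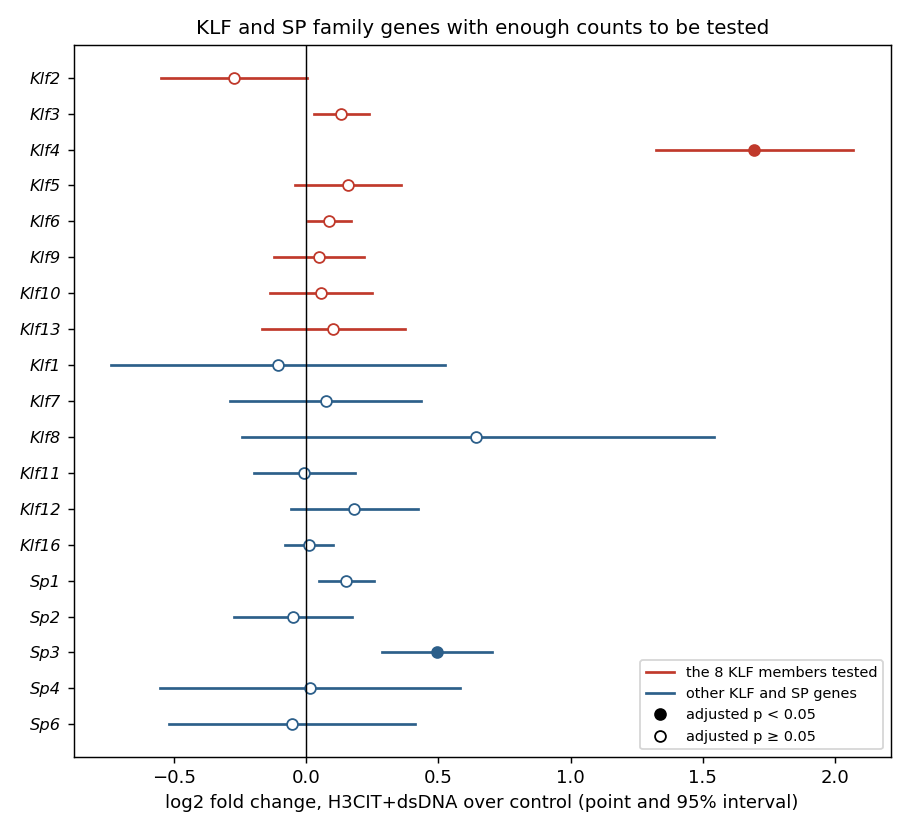
Log2 fold change of H3CIT+dsDNA over control for the 8 tested KLF members and the 11 other tested KLF and SP genes, as points with 95% confidence intervals. Filled points mark genes called by edgeR's quasi-likelihood test; Klf4, at 1.69, and Sp3, at 0.49, are the filled points.

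Genes known to act upstream of KLF transcription formed a list of 20, of which 17 were tested. Of the 17, 3 were called, all higher after H3CIT+dsDNA, beside 2.2% of all tested genes called in either direction. The median log2 fold change over the 17 was 0.0029. Pdgfb, which encodes the subunit of PDGF-BB, had 89, 89 and 88 counts after H3CIT+dsDNA and 23, 22 and 21 counts in controls. Its log2 fold change was 2.03 with a standard error of 0.19 (adjusted p-value 2.05e-05 in edgeR's quasi-likelihood test). The call held under all 15 alternatives. Within each group the counts of Pdgfb differ by less than counting noise alone would give. Their variance was 0.00376 and 0.0455 times the mean, where counting noise gives a ratio near 1. For Klf4 the same ratios were 2.2 and 0.844, and ratios from 3 counts vary widely, the controls of Klf9 being at 0.0498. Nr3c1, the glucocorticoid receptor gene, had 1538, 1373 and 1587 counts against 1177, 1290 and 1332 counts in controls. Its log2 fold change was 0.27 with a standard error of 0.05 (adjusted p-value 0.0140 in edgeR's quasi-likelihood test). Mef2a, a MADS-box factor through which the kinase ERK5 raises Klf2 and Klf4 transcription in endothelium, had 1826, 1724 and 1845 counts against 1437, 1672 and 1629 counts in controls. Its log2 fold change was 0.22 with a standard error of 0.05 (adjusted p-value 0.0334 in edgeR's quasi-likelihood test).

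The groups did not overlap for any of these 3 upstream genes, but Nr3c1 lost its call in 4 and Mef2a in 6 of the 15 alternatives. Their log2 fold changes stayed between 0.23 and 0.32 for Nr3c1 and between 0.17 and 0.25 for Mef2a. The adjusted p-value of Nr3c1 from edgeR was 0.0951 without H3CIT+dsDNA replicate 1, 0.0868 without H3CIT+dsDNA replicate 3, 0.0807 without control replicate 1 and 0.0618 without control replicate 2, in a range of 0.00183 to 0.0951 over all alternatives. That of Mef2a from edgeR was 0.175, 0.0579 and 0.144 without H3CIT+dsDNA replicates 1, 2 and 3, 0.138 without control replicate 1 and 0.0649 with upper-quartile scaling, in a range of 0.00909 to 0.175. With H3CIT+dsDNA replicate 1, H3CIT+dsDNA replicate 3 or control replicate 1 left out, 1 gene of the upstream list was called, Pdgfb. The members of the list with the most counts were not called. Pdgfrb, the receptor of PDGF-BB, had 6384, 6168 and 6711 counts against 6388, 6526 and 7028 counts in controls (log2 fold change -0.02, 95% interval -0.10 to 0.06). Tgfb1 had a log2 fold change of -0.07 (95% interval -0.14 to 0.01). Map2k5 and Map3k3, kinases upstream of ERK5, had log2 fold changes of -0.06 and 0.0029. Mapk7, the gene of ERK5 itself, was listed at 0 in all 6 libraries. ERK5 is broadly expressed, and whether this 0 comes from the annotation or the counting was not tested, so it is not read as an expression level.

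Nr3c1 was read beside 8 genes that glucocorticoid induces in many cells. None of the 8 was called by edgeR's quasi-likelihood test, 0 had an unadjusted p-value under 0.05, and DESeq2 and limma-voom also called 0. Their log2 fold changes lay between -0.38 and -0.0014, with a median of -0.05. Dusp1 and Tsc22d3, the genes with the most counts, were at -0.01 (95% interval -0.10 to 0.09) and -0.09 (95% interval -0.20 to 0.02).

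Several KLF genes respond to serum and growth factors within the same early window as Fos and Egr1, so 16 immediate-early genes were described as well. None was called by edgeR's quasi-likelihood test, by DESeq2 or by limma-voom, and 1, Fosl1, had an unadjusted p-value under 0.05. Their median log2 fold change was -0.06. Srf and Ier3 had the most counts, with log2 fold changes of -0.01 and -0.09. No gene of this list had groups that did not overlap, beside 19.1% of all tested genes.

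The proteins that KLFs recruit, and the ubiquitin ligases that act on them, were represented by 14 genes, all tested. None was called by edgeR's quasi-likelihood test, by DESeq2 or by limma-voom, and 1, Ep300, had an unadjusted p-value under 0.05. The log2 fold changes ran from -0.08 to 0.20 with a median of -0.01. Ctbp1, the corepressor bound by Klf3, and Sin3b, the genes with the most counts, were at -0.08 (95% interval -0.16 to 0.0033) and -0.01 (95% interval -0.10 to 0.07).

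Of 20 genes that textbooks give as KLF targets in vessels, blood cells or metabolism, 16 were tested and 1 was called. This was Edn1, the gene of the vasoconstrictor endothelin-1, which KLF2 is known to lower in endothelium. Edn1 had 761, 727 and 771 counts after H3CIT+dsDNA and 430, 324 and 330 counts in controls. The groups did not overlap, and control replicate 1 was the highest control. The log2 fold change was 1.08 with a standard error of 0.10 (adjusted p-value 1.57e-05 in edgeR's quasi-likelihood test), and it was called under all 15 alternatives. The median over the 16 tested targets was -0.04. Ctgf, the target with the most counts, had a log2 fold change of -0.02 (95% interval -0.09 to 0.04). The endothelial KLF2 target Nos3 was at -0.07 and the KLF4 target Cdkn1a at -0.04, and neither was called. Ccl5, Pck1, Sele and Thbd had too few counts to be tested.

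The contractile genes that KLF4 is known to repress were read with their coactivator gene Myocd in a list of 12, all tested. Of the 12, 4 were called lower and 1 higher, beside 2.2% of all tested genes called in either direction. The median log2 fold change of the list was -0.06. Cnn1, the gene of calponin, had 2546, 2558 and 2448 counts after H3CIT+dsDNA and 8766, 6566 and 7555 counts in controls. All H3CIT+dsDNA libraries were below all controls, and the log2 fold change was -1.57 with a standard error of 0.09 (adjusted p-value 9.54e-08 in edgeR's quasi-likelihood test). Acta2 and Tagln were called lower as well, at -0.69 and -0.40. Cnn1, Acta2 and Tagln stayed called under all 15 alternatives. The highest adjusted p-values of Cnn1 and Acta2 were 0.0155 and 0.0125, from edgeR with robust dispersion. Acta2 reads can be shared with actin genes of near-identical sequence, among them Actg2. Smtn, the gene of smoothelin, had 1007, 969 and 1030 counts against 1137, 1256 and 1143 counts in controls, a log2 fold change of -0.21 (adjusted p-value 0.0386 in edgeR's quasi-likelihood test).

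Smtn lost its call in 9 of the 15 alternatives, while its log2 fold change stayed between -0.24 and -0.17 in all 15. Its adjusted p-value was 0.0734 with DESeq2, 0.0583 with limma-voom and 0.0546 from edgeR with library size alone. From edgeR it was 0.176, 0.107 and 0.106 without H3CIT+dsDNA replicates 1, 2 and 3, and 0.115 and 0.202 without control replicates 1 and 2, in a range of 0.0176 to 0.202 for Smtn over all alternatives.

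Myocd, the coactivator of Srf that drives contractile gene transcription, went the other way, with 725, 596 and 757 counts after H3CIT+dsDNA against 320, 330 and 343 counts in controls. Its groups did not overlap, and the log2 fold change was 1.09 with a standard error of 0.08 (adjusted p-value 1.60e-06 in edgeR's quasi-likelihood test). The myosin gene Myh11 was not called (log2 fold change 0.06, 95% interval -0.01 to 0.13). The other genes of the list that were not called, Actg2, Cald1, Des, Lmod1, Mylk and Srf, had log2 fold changes between -0.09 and 0.16.

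The smooth muscle list, read against the label of the cells, was abundant and summed to 8159, 8628 and 8628 CPM after H3CIT+dsDNA and 11309, 11691 and 10882 CPM in controls. Since Klf2 and Klf4 are also expressed in endothelium and in myeloid cells, markers of other cell types were read beside them. By the study's methods, the outer and inner layers of the aorta were stripped off before culture, and the harvested cells were stained for α-SMA. Of 11 endothelial markers 6 were tested and 0 were called by edgeR's quasi-likelihood test, DESeq2 or limma-voom, and 0 had an unadjusted p-value under 0.05. The log2 fold changes of the 6 were all negative, between -0.22 and -0.06, with a median of -0.11. The summed level of the 11 markers was 116, 121 and 112 CPM after H3CIT+dsDNA and 120, 124 and 125 CPM in controls. Most of it came from Egfl7 and Nos3. Cldn5 was at 0 in all libraries, Kdr and Emcn had 1 count each in all libraries together, and Cdh5 had 78, 87 and 73 counts against 105, 79 and 98 counts in controls.

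Of 12 macrophage and leukocyte markers 5 were tested and 0 were called by the same 3 tools, and 0 had an unadjusted p-value under 0.05. They summed to 73.1, 73.0 and 75.2 CPM after H3CIT+dsDNA and 75.4, 76.6 and 73.8 CPM in controls. Cd14 and Csf1r had the most counts, and the defining leukocyte gene Ptprc had 1 count in all libraries together. Aif1, under the limit for testing, had 8, 9 and 9 counts against 2, 2 and 3 counts in controls, and its relation to the Klf4 result was not tested. Of 7 fibroblast markers 3 were tested, 0 were called by the same 3 tools and 0 had an unadjusted p-value under 0.05. They summed to 17.7, 16.8 and 14.2 CPM against 15.7, 13.8 and 16.3 CPM in controls. Col14a1 and Pi16 had the most counts, and Ly6c was not listed under that symbol. For each of these 3 marker lists the summed levels of both groups overlapped.

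The tested genes outside the family whose log2 CPM followed Klf4 most closely over the 6 libraries were Stxbp3, Arrb1 and Slc7a11. Pearson's r was 0.995 for Stxbp3, 0.995 for Arrb1 and 0.993 for Slc7a11, with Spearman's rho of 0.943, 0.943 and 1. These values describe 6 libraries that fall into both groups, and 235 tested genes had an r above 0.95 with Klf4, so many genes share this pattern. Arrb1, the gene of the signalling adaptor β-arrestin 1, had 1856, 1767 and 2062 counts after H3CIT+dsDNA and 567, 666 and 675 counts in controls. Its log2 fold change was 1.60 with a standard error of 0.06 (adjusted p-value 2.26e-09 in edgeR's quasi-likelihood test), close in size to that of Klf4. Slc7a11, the cystine transporter gene, changed by 0.34 (adjusted p-value 0.00230 in edgeR's quasi-likelihood test). Stxbp3, a gene of vesicle fusion, was at 0.29 and was not called (adjusted p-value 0.0826 in edgeR's quasi-likelihood test).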

How the data were processed

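RNA of 6 RASMC libraries was compared, 3 per group, assigned by their labels. The authors prepared stranded mRNA libraries, mapped reads to Rnor6.0 with TopHat 2.1.1, counted them with HTSeq and deposited whole-number counts per gene symbol, not normalized; the submitters' processing notes also name Cufflinks 2.2.1 and Cuffdiff. The strand setting of the counting is not given in the sources used here, so antisense and overlapping genes can share reads. From the counts, 12591 genes kept by filterByExpr were scaled by TMM and tested, two-sided, with edgeR 4.0.16 in R 4.3.3 on group alone. Standard errors were the absolute unshrunken coefficient over the root of F, and intervals use the t quantile of the fit. Members and gene lists were chosen with earlier results of these data known. Named were the 9 members, every called gene of each list and its 2 genes with the most counts, and the 3 genes most correlated with each called member; others were chosen after their values were seen. 1 gene that this rule names is not reported here. Gene levels were not compared with each other, because transcript lengths of the authors' build were not used here. As alternatives, scaling used library size alone, upper quartiles or DESeq2's size factors, the test was limma-voom (limma 3.58.1) or DESeq2 1.42.0, the filter was dropped or asked for 10 counts in every library, dispersions were robust, a replicate block was added, and single libraries were left out. Fits were tested on simulated data. No pair of replicate libraries agreed within counting noise (lowest chi-square per gene 3.27).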

Additional observations from a re-analysis of the deposited data

How the results depend on the processing

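All 8 tested KLF members kept their sign and their side of the threshold under the 15 alternatives. Klf4 was called in each, with a log2 fold change between 1.60 and 1.78 and an adjusted p-value of at most 0.000616 in edgeR, DESeq2 and limma-voom. With single libraries left out, the number of all called genes ranged from 164, without H3CIT+dsDNA replicate 1, to 357, without control replicate 3, and was 184 without control replicate 1; the cause was not tested. Other scalings moved the median log2 fold change of all genes to between -0.02 and 0.02. Genes called lower numbered 58 with no filter, 50 with robust dispersion, 57 without control replicate 3 and 17 without H3CIT+dsDNA replicate 1, against 33, and genes called higher 154 without control replicate 1 and 147 without H3CIT+dsDNA replicate 1, against 244. With the replicate block 212 genes were called, and Klf4 had an adjusted p-value of 0.000544 from edgeR. Deviations of libraries with the same number from their group means had correlations of -0.05, -0.0030 and 0.04 over all tested genes. These values include counting noise, so a pairing that moves few genes could not be seen in them. Outside the members, the block ended the calls of Mef2a and Smtn (adjusted p-values 0.0707 and 0.0981 from edgeR), with log2 fold changes of 0.22 and -0.21, as without it. Depth limits Klf15 and the family genes under the filter, for which a change between such low counts could not be seen. It also widens the intervals of genes with few counts such as Klf8. By the study's general account of in vitro work the wells share a rat, and on that account the spread between animals was not measured.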
